A study of Homo sapiens with 14 samples.

Results

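The 8 genes described here belong to the complement system and were followed through 14 RNA-seq libraries of the human breast cancer line MDA-MB-231. They are C1R, C1S, C3, CFB, CD46, CD55, CD59 and SERPING1, 8 of the 58434 gene symbols in the count table, listed by name, and C3 was chosen on its own values, a strong fall in the shDAP5 cultures and a wide spread between control cultures. C3 is therefore described without a test throughout. The other 7 genes were listed with earlier results of these data known. Of the 8, SERPING1 had no count in any library and the other 7 had counts in at least 13.

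All cells carried a doxycycline-inducible shRNA in a lentiviral vector with an RFP reporter, had been selected with puromycin and sorted on RFP, and received doxycycline at 1 µg/mL for 6 days. The shDAP5 cells expressed 1 shRNA against DAP5 (gene symbol EIF4G2), a relative of the scaffold protein eIF4G that promotes a non-canonical form of cap-dependent initiation, and the shNSi cells expressed a non-silencing shRNA. Each shRNA had 2 cultures, and from each culture total mRNA and mRNA from sucrose gradient fractions were sequenced: light polysomes with few ribosomes per mRNA, heavy polysomes with many, and for shNSi also moderate polysomes in between. The contrast asks which mRNAs depend on DAP5 for their abundance and for their loading with ribosomes. The labels mark the cultures by a replicate number and by a code that they do not explain, R11 and R3 for shNSi cultures 1 and 2 and R4 and R5 for shDAP5 cultures 1 and 2, and the study describes 2 complete experiments done independently. The p-values rest on the spread between libraries, estimated for each gene by drawing also on the spread of all genes tested. In the gradient comparisons that spread is estimated over all 14 libraries. They cover only these 2 cultures of each shRNA, and each shRNA is 1 sequence in 1 stable line. The shDAP5 light libraries, light by title, carry the same fraction code, MD, as the shNSi moderate libraries, while the shNSi light libraries carry LD.

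Complement is a cascade of plasma proteases that tags cells and microbes for removal. C1r and C1s are the serine proteases of the first component and start the classical pathway, C3 is the central protein whose cleavage all pathways share, and factor B, the product of CFB, is the protease subunit of the alternative pathway convertase. Host cells protect themselves with membrane regulators: CD46 is a cofactor for cleavage of C3b and C4b, CD55 (decay-accelerating factor) dissociates the convertases, and CD59 blocks assembly of the membrane attack complex, while SERPING1 encodes the C1 inhibitor that inactivates C1r and C1s. The liver makes most plasma complement, but epithelial and tumour cells also transcribe C3, CFB, C1R and C1S, typically under inflammatory and interferon signals, whereas the membrane regulators are expressed on nearly every cell.

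In the GENCODE annotation of GRCh38, which is not the hg19 build of the deposited counts, C3 lies on the minus strand of chromosome 19 (6677704 to 6730562) and CFB on the plus strand of chromosome 6 (31945650 to 31952084). C1R (minus strand, 7080199 to 7092607) and C1S (plus strand, 6988259 to 7071032) are close to each other on chromosome 12 without overlapping. CD55 (207321376 to 207386804) and CD46 (207752057 to 207795513) lie on the plus strand of chromosome 1, and CD59 (minus strand, 33703010 to 33736491) and SERPING1 (plus strand, 57597387 to 57614853) on chromosome 11. The longest annotated coding sequence was 4989 nt for C3, 2292 nt for CFB, 2157 nt for C1R, 2064 nt for C1S, 1650 nt for CD55, 1629 nt for SERPING1, 1197 nt for CD46 and 384 nt for CD59, so C3 and CD59 mark the ends of the length range.

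The RefSeq promoter table (GRCh38.p14) held 5 of the 8 genes, namely C1R, CFB, CD46, CD55 and CD59. The 250 bases upstream of the start sites are shown for C1R and CFB, because these transcripts varied together with C3 between cultures. C1R has 2 start sites in the table, both on the minus strand, with upstream windows at chr12:7092446-7092695 and chr12:7091894-7092143, and the CFB window is chr6:31945845-31946094 on the plus strand. Capitals mark matches, on either strand, to TTCNNNGAA (a palindrome bound by cytokine-activated transcription factors) or GAAANNGAA (part of an interferon-stimulated element). The other motif searched, GGGNNTTCC (an NF-kB-type site), matched none of these windows.
C1R, first window: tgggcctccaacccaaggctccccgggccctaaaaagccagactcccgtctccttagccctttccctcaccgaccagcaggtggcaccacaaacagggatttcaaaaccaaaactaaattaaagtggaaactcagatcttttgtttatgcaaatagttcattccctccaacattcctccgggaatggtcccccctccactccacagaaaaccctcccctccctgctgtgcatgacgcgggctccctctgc
C1R, second window: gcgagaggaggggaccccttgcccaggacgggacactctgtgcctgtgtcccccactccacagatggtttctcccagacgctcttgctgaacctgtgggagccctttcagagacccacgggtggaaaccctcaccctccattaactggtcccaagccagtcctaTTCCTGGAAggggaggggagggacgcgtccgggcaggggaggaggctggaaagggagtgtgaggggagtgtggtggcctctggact
CFB: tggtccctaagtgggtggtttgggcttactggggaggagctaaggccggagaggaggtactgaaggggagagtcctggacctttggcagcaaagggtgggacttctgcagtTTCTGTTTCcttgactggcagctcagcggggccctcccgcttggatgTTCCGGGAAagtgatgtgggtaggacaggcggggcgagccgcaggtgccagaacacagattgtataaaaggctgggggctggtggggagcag
The second C1R window held 1 TTCNNNGAA match, its first base 86 bases before the start, and the first C1R window held no match to any of the motifs. The CFB window held 1 TTCNNNGAA match, 92 bases before the start, and 1 GAAANNGAA match, 139 bases before it. Of 35116 upstream windows of this length in the table, 6.57% held TTCNNNGAA, 6.88% held GAAANNGAA and 5.78% held GGGNNTTCC. TTCNNNGAA also matched in 2 of the 4 CD59 windows, 184 and 128 bases before their starts, which is 1 match in a stretch that both windows cover, and the CD46 and CD55 windows held none of the motifs. The matches are letter matches and were not tied to any binding data.

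Library totals ran from 25899838 to 30795910 counts, and levels are given as CPM, that is counts scaled to the size of each library and then by TMM (a correction for library composition) over the 14 libraries. EIF4G2 fell in total mRNA from 1419 ± 32.5 CPM (SD, n = 2) in shNSi to 645 ± 147 in shDAP5, a log2 change of -1.11 (adjusted p = 0.0172). Of the MDA-MB-231 markers, 5 of 5 were expressed at a mean of at least 1 CPM, as were 4 of the 7 luminal or epithelial markers, at a mean of 529 CPM for KRT8, 576 for KRT18, 57.9 for ERBB2 and 4.57 for EPCAM. Of the other 3, CDH1 (E-cadherin) had at most 8 counts and ESR1 at most 16 counts in a library, and PGR had 0 in all. The 4 hepatocyte markers (ALB, APOA1, TTR, TF) summed to at most 0.511 CPM in a library, with TTR at 0 throughout.

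The initiating proteases C1R and C1S had their highest level of each fraction in shNSi culture 2. In total mRNA, C1R stood at 2.61 CPM in shNSi culture 1, 11.5 in shNSi culture 2, 5.95 in shDAP5 culture 1 and 4.33 in shDAP5 culture 2. C1S showed the same shape at 1.62, 5.15, 1.69 and 1.998 CPM in the same order of cultures. For both genes the 2 shNSi cultures lay on either side of the shDAP5 cultures, so the groups overlapped. In heavy polysomes C1R was at 4.58 CPM in shNSi culture 1 and 34.6 in shNSi culture 2, against 3.60 and 4.82 in the shDAP5 cultures. C1S was at 2.07 and 13.3 CPM in the shNSi heavy polysomes and at 1.68 and 1.47 in the shDAP5 ones. The C1S groups did not overlap there, but shNSi culture 1 lay near the shDAP5 cultures, and the C1R groups did overlap.

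The high levels of C3 were all in shNSi culture 2. Its total mRNA was 2.13 CPM (62 counts) in shNSi culture 1 and 74.1 CPM (2027 counts) in shNSi culture 2. The shDAP5 cultures had 2.67 and 3.69 CPM, both above shNSi culture 1 and far below shNSi culture 2. In light polysomes C3 was at 0.729 and 15.9 CPM in shNSi and at 1.14 and 0.916 in shDAP5. In the shNSi moderate polysomes it was at 0.382 (11 counts) and 26.5 CPM (713 counts). In heavy polysomes C3 reached 3.28 CPM (76 counts) and 211 CPM (4699 counts) in shNSi, and 1.08 and 2.31 CPM in shDAP5. The groups were separated in heavy polysomes alone, where each shDAP5 value was under each shNSi value. The shNSi means carried SDs larger than themselves, at 38.1 ± 50.9 CPM in total mRNA and 107 ± 147 in heavy polysomes (n = 2).

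CFB was close to the limit of detection, with 138 counts over the 14 libraries and a mean of 0.376 CPM. Its total mRNA held 2 counts in shNSi culture 1, 24 in shNSi culture 2, 15 in shDAP5 culture 1 and 7 in shDAP5 culture 2. In heavy polysomes it had 4 and 36 counts in shNSi, 6 in shDAP5 culture 1 and 0 in shDAP5 culture 2, where 3 counts would have been 0.119 CPM. As for C3, the highest count in each fraction was in shNSi culture 2. SERPING1, which would hold C1r and C1s in check, had 0 counts in all 14 libraries, and 3 counts would have been 0.0902 to 0.135 CPM.

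**Figure D1:**
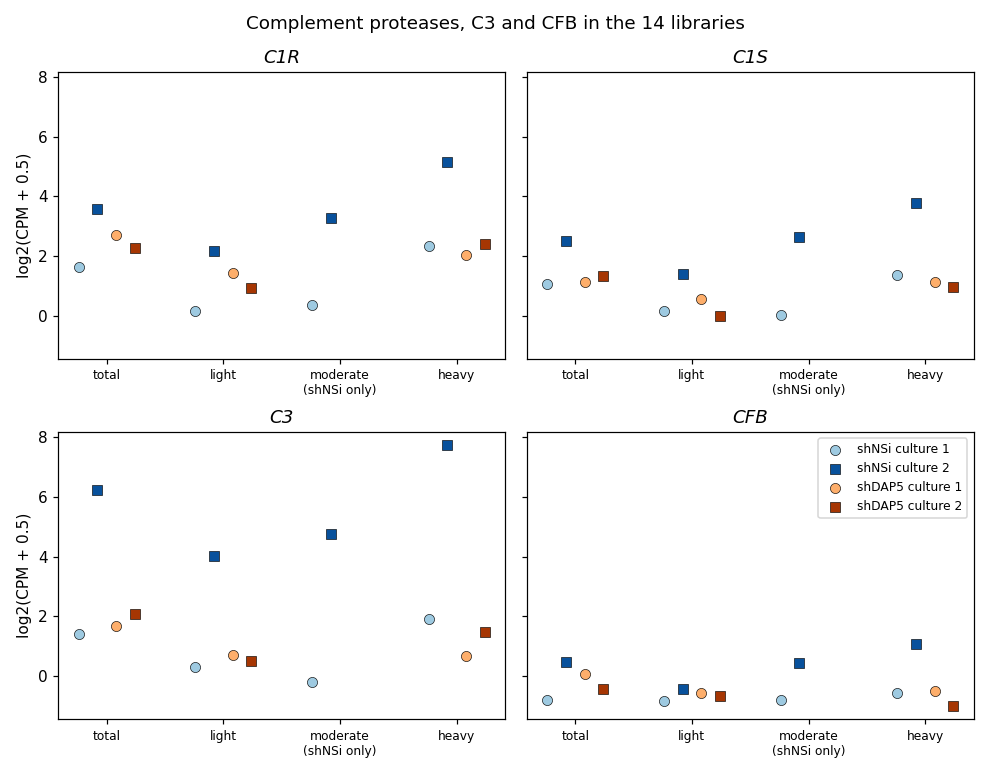
Each panel plots log2(CPM + 0.5) of C1R, C1S, C3 or CFB against the fraction, with 1 point per library and the 2 cultures of each shRNA in separate colours and symbols. The dark squares of shNSi culture 2 are highest in every fraction of every panel, and for C3 they correspond to 74.1 CPM in total mRNA and 211 CPM in heavy polysomes.

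The membrane regulators had more CPM than C1R, C1S and CFB in each of the 14 libraries. CD55 total mRNA was at 231 and 178 CPM in the shNSi cultures and at 96.0 and 129 CPM in the shDAP5 cultures. Its light polysome levels were 105 and 142 CPM against 58.3 and 72.4, and its heavy polysome levels 330 and 235 CPM against 95.3 and 155. CD55 was thus lower in both shDAP5 cultures than in both shNSi cultures in each of the 3 fractions they share. CD46 total mRNA was at 79.8 and 101 CPM in shNSi and at 68.6 and 84.5 in shDAP5, with overlap. In light polysomes CD46 was at 30.8 and 56.9 CPM in shNSi and at 36.0 and 39.5 in shDAP5, again with overlap. In heavy polysomes it was at 174 and 176 CPM in shNSi and at 79.9 and 79.6 CPM in shDAP5, with SDs of 1.33 and 0.264 (n = 2). CD59, the most abundant of the 8, had 483 and 553 CPM of total mRNA in shNSi and 379 and 437 in shDAP5. It was concentrated in light polysomes, at 820 and 831 CPM in shNSi and 498 and 640 in shDAP5. Heavy polysomes held 302 and 316 CPM of CD59 in shNSi and 316 and 429 in shDAP5, where shNSi culture 2 and shDAP5 culture 1 were almost equal.

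**Figure D2:**
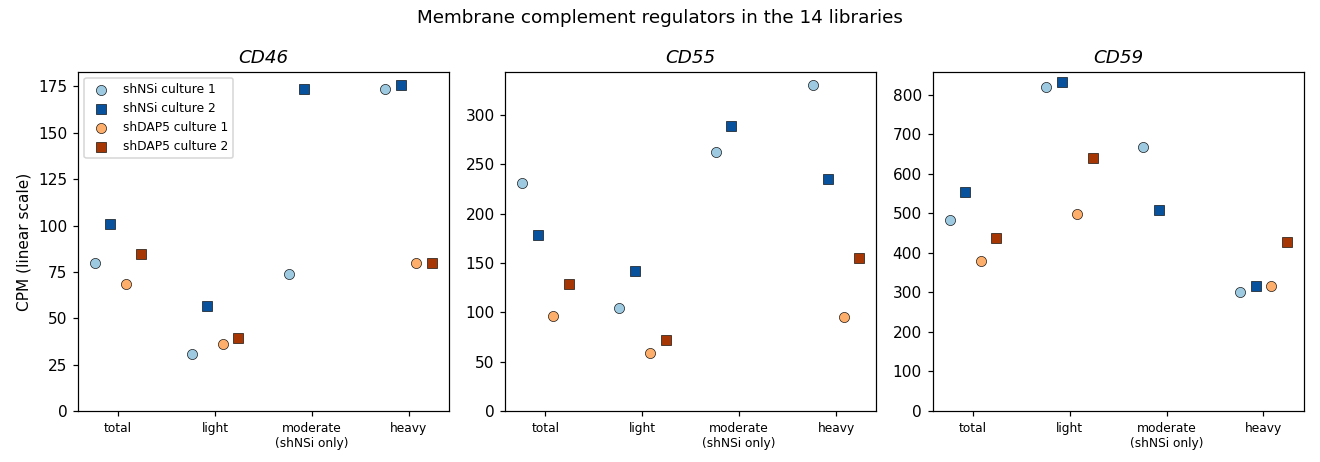
CPM of CD46, CD55 and CD59 on linear axes from 0, by fraction, with 1 point per library. In heavy polysomes the shNSi points of CD46 sit at 174 and 176 CPM and the shDAP5 points at 79.9 and 79.6, whereas CD59 is highest in light polysomes.

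Per kilobase of exon, which allows genes to be compared, CD59 total mRNA ranged over the 4 cultures from 36.6 to 53.4 CPM per kb and CD55 from 16.2 to 39.1. CD46 ranged from 7.88 to 11.6 CPM per kb and did not overlap CD55. C1R ranged from 0.444 to 1.95, C1S from 0.250 to 0.798 and CFB from 0.0138 to 0.176 CPM per kb. C3 spanned 0.256 to 8.90 CPM per kb, with 3 cultures at 0.443 or less, as low as C1S, and shNSi culture 2 in the range of CD46. The ranges of CD59 and CD55 overlapped, as did those of C1R and C1S. Transcripts of the regulators that block C3 activation and the terminal pathway on the cell surface were therefore at higher levels per length than those of the proteases and of CFB in every culture, with C3 moving between the 2 levels.

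C3, C1R and C1S differed strongly between the 2 shNSi cultures. Within each fraction, C3 was higher in shNSi culture 2 by 34.7-fold in total mRNA, 21.7-fold in light, 69.2-fold in moderate and 64.3-fold in heavy polysomes. C1R was higher in that culture by 4.39-fold, 6.42-fold, 11.6-fold and 7.56-fold in the same fractions, and C1S by 3.19-fold, 3.40-fold, 10.9-fold and 6.40-fold. The CFB ratios were 12.8, 3.65, 12.3 and 9.37, on counts of 2 to 4 in culture 1. The ratios of CD55 ran from 0.713 to 1.36 and those of CD59 from 0.764 to 1.15. CD46 had ratios of 1.01 in heavy polysomes, 1.84 in light and 2.36 in moderate ones. With 1 library per culture and fraction these ratios have no test. Taken on log2(CPM + 0.5), 84 of 16235 genes (0.517%) were more than 2-fold higher in culture 2 in all 4 fractions and 39 (0.24%) more than 2-fold lower. Of the 8 genes, C3, C1R and C1S were among the 84. Ordered by the smallest of the 4 ratios, C3 ranked 1, C1R 13 and C1S 48 of 16235, and the wide spread of C3 was part of how it was chosen.

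Other inflammatory genes differed between the same cultures. Of the 20 acute-phase and NF-kB genes, 4 were among the 84: LCN2 (lipocalin 2), CXCL1, CXCL2 and CXCL8. Of the 15 interferon-response genes, GBP2 was among the 84, and IFIT2 was among the 39 that were lower, with log2 ratios of -2.29 in total mRNA, -1.91 in light, -1.48 in moderate and -2.05 in heavy polysomes. Of the 46 further complement genes none was among the 84, and C4BPB, a chain of the C4b-binding protein, was another of the 39. These genes were named after their values were seen. LCN2 ranked 2 after C3, with 4, 7, 4 and 1 counts in the total, light, moderate and heavy libraries of shNSi culture 1 and 235, 212, 505 and 253 in those of culture 2. Its shDAP5 libraries held 1 to 8 counts, so that LCN2, like C3, was high in shNSi culture 2 alone. CXCL8 total mRNA was different, at 6.57 CPM in shNSi culture 1, 37.9 in shNSi culture 2 and 19.98 and 25.7 in the shDAP5 cultures, which lay between the 2 controls. The macrophage marker CSF1R, the receptor for colony-stimulating factor 1, was among the 84 as well, at 0.722 and 5.41 CPM in the shNSi total libraries. The 4 leukocyte markers summed to 1.995 CPM there in culture 1 and 7.35 in culture 2, and to 1.22 to 7.98 CPM over all shNSi and 2.40 to 4.65 over the shDAP5 libraries. PTPRC (CD45), which defines leukocytes, had at most 7 counts in any library, reached in an shDAP5 one, and 0 to 2 counts in the shNSi libraries. The part of these cells in the C3 level was not tested, and cell number and RNA per cell cannot be told apart in bulk RNA.

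Across the 14 libraries, the genes whose log2 CPM followed C3 most closely, of 12977 compared, were IFITM10 (Pearson r = 0.952), C1S (0.948), COL7A1 (0.944), DOK3 (0.939) and P3H3 (0.938). The coefficients describe libraries that share 4 cultures and, within a culture, the same gradient, and no p-value is attached. C1R had r = 0.898 with C3 and LCN2 0.893. Among the members themselves, C1R and C1S had r = 0.958 and C3 and CFB 0.887, while CD59 ran the other way from C1R (-0.57). COL7A1, the collagen of anchoring fibrils, was at 53.6 CPM in the total mRNA of shNSi culture 1 and 247 in shNSi culture 2, against 44.6 and 55.1 in shDAP5. Its heavy polysome values were 55.0 and 491 CPM in shNSi and 41.3 and 40.04 in shDAP5.

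**Figure D3:**
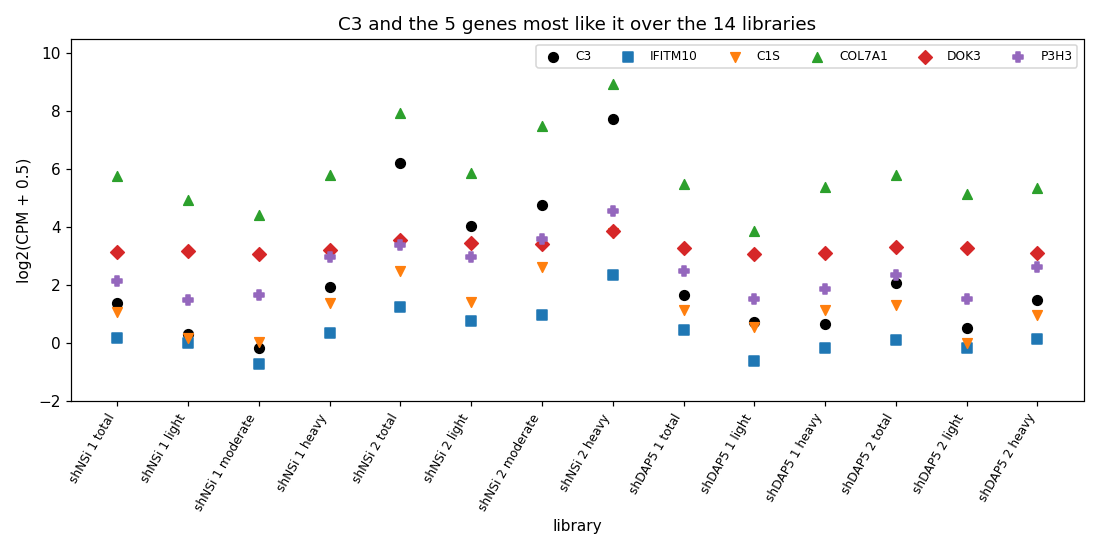
log2(CPM + 0.5) of C3 and of the 5 genes with the highest Pearson r with it, for each of the 14 libraries in order of shRNA, culture and fraction. C3, C1S, COL7A1, IFITM10 and P3H3 have their highest value in the heavy library of shNSi culture 2, as does DOK3 over a narrower range.

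In total mRNA, the shDAP5 cultures had less of all 7 detected transcripts on average, and none of the 6 tested passed. C3 had a log2 change of -3.54 (no test). The other changes were -0.84 for C1S (adjusted p = 0.546), -0.83 for CD55 (0.0853), -0.42 for C1R (0.904), -0.31 for CD59 (0.503), -0.24 for CFB (0.959) and -0.21 for CD46 (0.754). The called members were 0 of 6, against 53 of 14992 genes (0.354%) in all, and their median was -0.36 against 0.01 over all genes. Without shNSi culture 2 the direction of 4 genes turned: C3 stood at 0.60, C1R at 1.00, C1S at 0.22 and CFB at 2.44. CD55 had its largest falls without shDAP5 culture 2 (-1.07, adjusted p = 0.0208) and without shNSi culture 2 (-1.01, adjusted p = 0.0294), and its adjusted p ran from 0.00117 to 1.00 over 11 alternatives.

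In heavy polysomes, C1S, CD55 and CD46 fell, with calls that depended on the cultures and settings used. CD46 changed by -1.06 on the log2 scale (SE 0.33, adjusted p = 0.00943), CD55 by -1.11 (SE 0.35, adjusted p = 0.00959) and C1S by -2.18 (SE 0.59, adjusted p = 0.00874). C1R, at -2.12 (SE 1.17, adjusted p = 0.291), and CD59, at 0.34 (adjusted p = 0.485), did not pass, and CFB was too low to be tested. C3 changed by -5.88 (no test), a fall that was part of how it was chosen. The members called were 3 of 5, all lower, against 30.9% of all genes tested (4414 of 14270) called in either direction, and their median of -1.11 compares with 0.09 over all genes. The C1S call rested on shNSi culture 2, without which C1S was at -0.38 (adjusted p = 0.681), C1R at -0.11 and C3 at -0.95. CD46 kept -1.11 (adjusted p = 0.0310) and CD55 -1.38 (adjusted p = 0.00778) without that culture. The calls of CD46 (adjusted p = 0.0752 and 0.154) and CD55 (0.208 and 0.110) were lost without shDAP5 culture 1 and without shDAP5 culture 2 respectively, where 2 genes in all were called in the latter case, and CD55 also without shNSi culture 1 (0.0627). C1S was lost without shDAP5 culture 2 as well (0.256). Over 14 alternatives CD46 kept its call in 9 (adjusted p from 0.00126 to 0.953), C1S in 8 (3.83e-09 to 0.907) and CD55 in 6 (0.00523 to 0.508). No member was called with the shNSi moderate control, and 1 each with limma (CD46), with the summed heavy and moderate control (C1S) and with the coding-length offset (CD46). C1R, not called with all cultures, passed in 6 of the 14, its adjusted p running from 6.57e-11 to 1.00.

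In light polysomes, no gene was called in the whole table by edgeR (0%, 0 of 15529), where 1330 genes had an unadjusted p under 0.05 and DESeq2 called 105. The members were at -0.89 for CD55, -0.88 for C1S, -0.51 for CD59, -0.35 for C1R and -0.19 for CD46, and C3 at -2.97 (no test). Without shNSi culture 2 C3 was at 0.51, C1R at 1.52, C1S at 0.23 and CD46 at 0.30, while without shNSi culture 1, C1R, C1S, CD46 and CD55 passed as lower (-1.15, -1.51, -0.57 and -1.10; adjusted p = 0.0134, 0.0116, 0.0357 and 2.18e-05). Which of the control cultures was used thus decided the sign of 4 members in this fraction. With the shNSi moderate libraries as control, 3940 genes were called, among them CD46 (-1.62, adjusted p = 0.0280) and CD55 (-1.98, adjusted p = 0.0110).

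**Figure D4:**
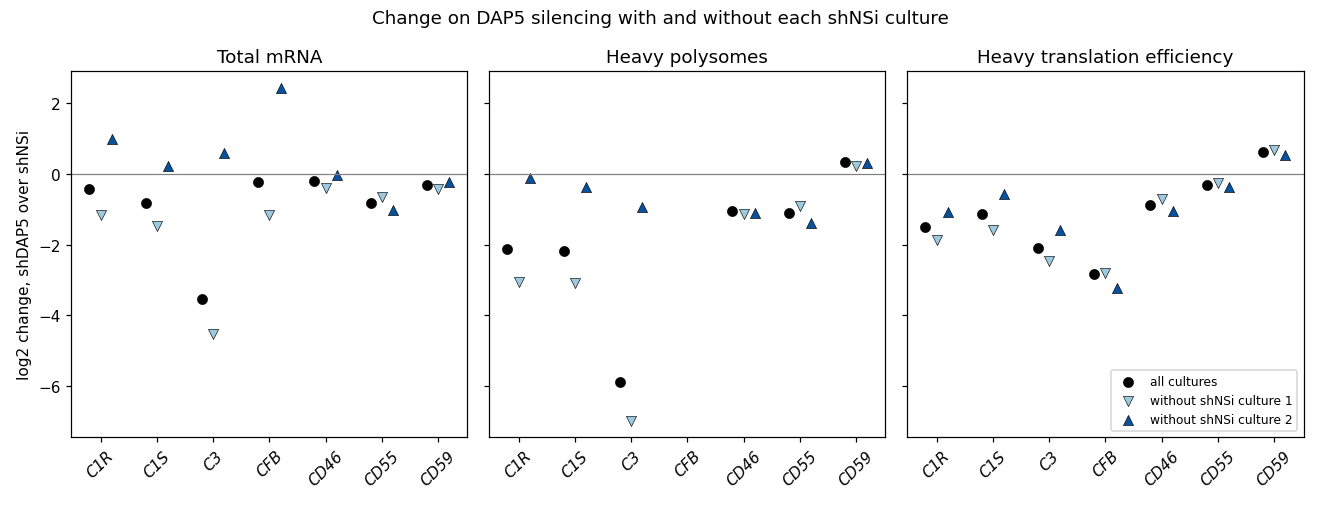
Fitted log2 change of shDAP5 over shNSi for 7 genes in total mRNA, heavy polysomes and heavy translation efficiency, from all cultures (circles), without shNSi culture 1 (downward triangles) and without shNSi culture 2 (upward triangles). The heavy polysome change of C3 is -5.88 with all cultures and -0.95 without shNSi culture 2, whereas CD46 stays near -1.06, and CFB has no heavy polysome point.

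Heavy translation efficiency is the heavy polysome level relative to total mRNA of the same culture, so a transcript that is abundant in 1 culture is not counted for its abundance. On this ratio, C1R fell by 1.51 on the log2 scale (SE 0.39, adjusted p = 0.0124) and CFB was at -2.84 (SE 0.98, adjusted p = 0.0465). C3 had -2.08 (no test), C1S -1.15 (adjusted p = 0.0787), CD46 -0.87 (0.0703), CD55 -0.30 (0.578) and CD59 0.62 (0.228). The calls were 2 of 6 members, both lower, against 13.1% of all genes (2012 of 15374), and the members' median was -1.01 against 0.09. By culture, the log2 ratio of heavy to total C1R was 0.81 and 1.59 in shNSi and -0.73 and 0.15 in shDAP5. For C3, which was chosen for its fall, the ratios were 0.62 and 1.51 in shNSi and -1.30 and -0.68 in shDAP5. The ratio of shNSi culture 1 rests on 76 heavy and 62 total counts. CD55 ratios were 0.51 and 0.40 in shNSi against -0.01 and 0.27, and CD46 ratios 1.12 and 0.80 against 0.22 and -0.09. The CD59 ratios were -0.68 and -0.81 in shNSi and -0.27 and -0.03 in shDAP5.

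These calls depended on the control cultures and fractions. Without shNSi culture 2, C1R was at -1.09 (adjusted p = 0.602), C3 at -1.58 and CFB at -3.24 (adjusted p = 0.617), in a fit that called 4 genes in all. CFB, whose shDAP5 culture 2 had 0 counts in heavy polysomes, also lost its call without shNSi culture 1 (adjusted p = 0.135) and without shDAP5 culture 2 (0.205), and its fitted change depends on the prior count. With the shNSi moderate polysomes as control in place of the heavy ones, C1R was at 0.57, C1S at 0.30 and C3 at 0.83, all turned in direction. With the heavy and moderate counts summed, C1R was at -0.61 and C3 at -1.03, and neither fit called any gene, nor did edgeR without TMM or without the culture terms. The C1R call held in 8 of 14 alternatives, its adjusted p running from 0.00388 to 1, and the CFB call in 1 of 12, with an adjusted p from 0.0208 to 1.

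On the shNSi gradient CD59 lay apart from the longer transcripts, whose order did not follow coding length strictly. CD46 (1197 nt), for example, lay further towards heavy polysomes than CD55 (1650 nt). In shNSi, heavy over light polysomes, C1R changed by 3.08 on the log2 scale, CFB by 2.49, C1S by 2.35, CD46 by 2.17 and CD55 by 1.27, all higher in heavy polysomes. CD59, with the shortest coding sequence, changed by -1.34 and was higher in light polysomes. The adjusted p-values ran from 2.77e-07 for C1R to 0.00376 for CFB, so 6 of 6 members passed, against 65.2% of all genes, and C3 was at 3.28 (no test). The CFB call was lost without shNSi culture 2 (1.28, adjusted p = 0.482) and held in 6 of 8 alternatives, and the other 5 genes passed under each of their 9. Between moderate and light shNSi polysomes, CD46 (1.41, adjusted p = 0.00123) and CD55 (1.10, adjusted p = 0.00517) were called, 2 of 6 members against 32.3% of all genes. C3 stood at 0.23 (no test), and its sign turned to -0.997 without shNSi culture 2. By culture, C3 was lower in moderate than in light polysomes in shNSi culture 1 (0.382 against 0.729 CPM) and higher in culture 2 (26.5 against 15.9 CPM).

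In shDAP5, the same direction was seen for 5 of the 6 tested members. Heavy over light polysomes, C1R was at 1.18 (adjusted p = 0.00536), C1S at 1.04 (0.0453), CD46 at 1.02 (0.00465), CD55 at 0.84 (0.0150) and CD59 at -0.68 (0.0489). CFB was at -0.63 (0.562), so 5 of 6 members passed, against 47.1% of all genes, and C3 was at 0.58 (no test). All 5 calls were lost when shDAP5 culture 2 was left out, and 4 of the 5, all but C1R, when shDAP5 culture 1 was left out, each fit then resting on 1 shDAP5 culture. The difference between the shRNAs in this ratio was itself tested. C1R (-1.90, SE 0.46, adjusted p = 0.00967) and CD46 (-1.15, SE 0.38, adjusted p = 0.0433) passed, 2 of 6 members against 17.1% of all genes, CFB was at -3.12 (0.0571), C1S at -1.31 (0.120), CD55 at -0.43 (0.486) and CD59 at 0.66 (0.271), and C3 was at -2.70 (no test). These values depend on the title of the shDAP5 light libraries, whose fraction code is that of the shNSi moderate ones. With heavy over moderate polysomes of shNSi in place of heavy over light, an alternative chosen after seeing the data, no member was called. C1R was then at -1.02 (adjusted p = 0.0975), while CD46 turned to 0.26 (0.652) and CD55 to 0.68 (0.199). By culture, the log2 ratio of heavy to moderate polysomes in shNSi was 1.24 and 0.02 for CD46, where heavy to light in shDAP5 was 1.15 and 1.01. For C1R it was 2.52 and 1.90 in shNSi, above the shDAP5 values of 0.71 and 1.79.

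Coding length was also set against the changes in heavy translation efficiency. CD59, the shortest, had the one positive value of the 6 members tested (0.62), and C3, chosen for its fall, is not counted here. Over 12467 genes with a length, Spearman's rho between the change in heavy translation efficiency and coding length was -0.707, a correlation across genes of the same libraries. The median change was -0.75 in genes at or above the upper quartile of length (2277 nt) and 0.68 in those at or below the lower quartile (904.5 nt). With an offset for coding length in each library, C1R was at -1.08 (adjusted p = 0.0763), C3 at -1.13, CFB at -2.32 (0.149) and CD46 at -0.98 (0.0267), while CD59 turned to -0.23. The part of length in these changes was otherwise not tested.

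**Figure D5:**
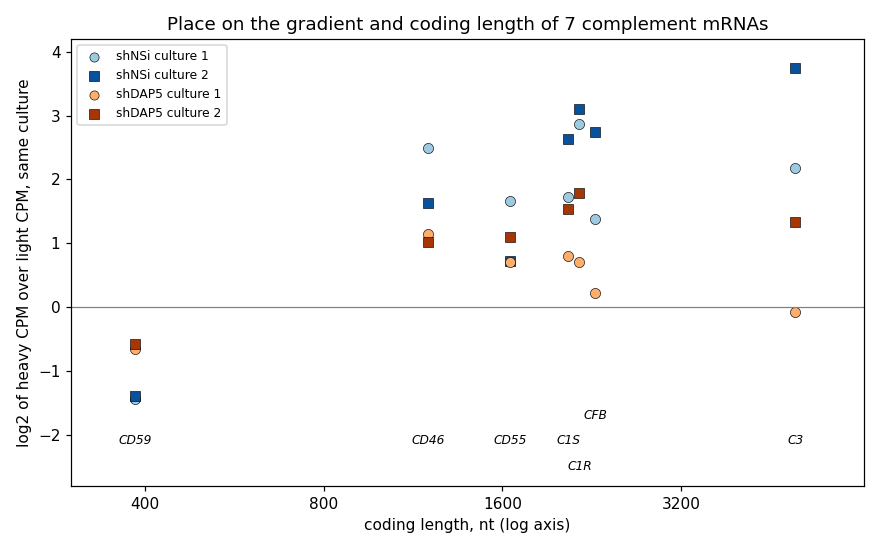
log2 of heavy over light CPM in the same culture against coding length (log axis) for 7 complement transcripts, 1 point per culture. CD59 (384 nt) lies below 0 in every culture, the longer transcripts lie above 0 in the shNSi cultures, and the shDAP5 points are nearer to 0 than both shNSi points for each transcript but CD55, where they overlap, while CFB of shDAP5 culture 2 is missing because its heavy library had 0 counts.

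Of the 46 further complement genes, 13 had no count in any library, among them the C1q chains (C1QA, C1QB, C1QC), C6, C7 and vitronectin (VTN), and 8 averaged at least 1 CPM. In total mRNA none of 11 tested passed, against 0.354% of all genes, with a median of -0.40. In heavy polysomes 5 of 11 passed, 4 lower and 1 higher, against 30.9% of all genes, with a median of -0.58. CLU (clusterin), an inhibitor of the terminal pathway, changed by -1.62 (adjusted p = 1.60e-04) and ITGB2, the beta chain of the complement receptors 3 and 4, by -1.39 (adjusted p = 0.00246). C3AR1, the C3a receptor, changed by -1.96 (adjusted p = 0.00481) at a mean of 0.737 CPM, under the 1 CPM set for naming. CFD, factor D, the protease that cleaves factor B, rose by 2.62 (SE 0.52, adjusted p = 2.87e-05), from 0.778 and 0.450 CPM to 3.39 and 3.90. In heavy translation efficiency 3 of 12 passed, against 13.1% of all genes, 1 lower and 2 higher, the latter being CFD at 1.60 (adjusted p = 0.0348) and C4BPB at 1.31 (adjusted p = 0.0181). The coding lengths of CFD and C4BPB were 780 nt and 756 nt, both under the lower quartile of 904.5 nt.

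In the inflammatory and interferon lists, the genes called lay in both directions. In total mRNA none of 16 acute-phase and NF-kB genes and none of 13 interferon-response genes passed, against 0.354% of all genes. In heavy polysomes the former had 2 lower, PTX3 (-1.49) and NFKB2 (-1.36), and 3 higher, IL6 (1.77), CEBPD (1.54) and CEBPB (1.08), 5 of 15 tested against 30.9% of all genes. The interferon-response genes had 3 lower, among them GBP1 (-1.35) and TAP1 (-1.24), and 2 higher, ISG15 (1.34) and PSMB9 (1.02), 5 of 13 against the same 30.9%. In heavy translation efficiency NFKB2 (-0.99), GBP1 (-1.09) and GBP2 (-1.18) were lower and SAA2 (1.31), ISG15 (1.07) and PSMB9 (1.15) higher, with 2 of 17 and 5 of 13 called in the lists against 13.1% of all genes. Of the 4 fibroblast markers, named after their values were seen, 2 were tested in heavy polysomes and 2 were called lower, against 30.9% of all genes called. COL1A1 changed by -1.67 (adjusted p = 6.37e-05) and LUM by -2.40 (adjusted p = 0.00506). LUM had a mean of 0.298 CPM and 1 to 25 counts in a library, under the 1 CPM set for naming. The list summed to 8.36 to 81.6 CPM in the shNSi and 7.74 to 20.3 in the shDAP5 libraries, with DCN at 2 counts at most.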

How the data were processed

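RNA-seq counts were analysed for 14 libraries of MDA-MB-231 cells: 2 cultures each of shNSi (total, light, moderate, heavy) and shDAP5 (total, light, heavy). The deposited values are whole-number counts per gene symbol, not normalized, which the authors made by aligning reads to hg19 with STAR 2.6.0a per the submitters' processing notes. The name of the deposited table carries the tool name featureCounts and the tag rev, and the version and the strand setting of the counting are not given in the sources used here. Groups were taken from the sample titles. The shDAP5 light libraries are titled light but carry the same fraction code as the shNSi moderate ones. The shDAP5 total libraries are titled total polysome but coded as total. The titles were followed, and the moderate libraries were tried as an alternative control, for the gradient difference after seeing the data.

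Counts were tested with edgeR 4.0.16 in R 4.3.3 (filterByExpr, TMM, robust quasi-likelihood test, Benjamini-Hochberg over all genes tested, threshold 0.05). Total, light and heavy libraries were compared in fits of 4 libraries each. For heavy translation efficiency, an interaction term (fraction by shRNA) was fitted over 8 libraries beside culture terms, and gradient comparisons used all 14 libraries with culture terms. With 2 cultures per group no permutation test of a single value can go below p = 0.333. Ratios between cultures and likeness to C3 used log2(CPM + 0.5). DESeq2 1.42.0 and limma 3.58.1 were used as alternatives, with other filters, scalings, control fractions, a coding-length offset and each culture left out. The fits were tested on simulated data. Positions and lengths came from GENCODE release 29 (GRCh38), in which 37533 symbols matched, and they were not used with hg19 coordinates.

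The members and gene lists were chosen with earlier results of these data known. Genes named were the 8 members, EIF4G2, the 5 genes most like C3, and genes of the complement, inflammatory and interferon lists with a mean of at least 1 CPM that passed in total mRNA, heavy polysomes or heavy translation efficiency. C3AR1, LCN2, CXCL1, CXCL2, CXCL8, IFIT2 and the marker genes given with values fall outside this rule and were named after their values were seen. Counts of 3 stand for the limit of a library with 0, and such limits cover counting error only. Some genes that meet this rule are not reported here by name and are included in the counts of their lists.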

Additional observations from a re-analysis of the deposited data

Results flagged for a closer look

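The difference between shDAP5 and shNSi in heavy over light polysomes passed the interaction test for 2 of the 6 genes tested, C3 having no test and SERPING1 no counts, against 17.1% of all genes. For C1R it was -1.90 on the log2 scale (adjusted p = 0.00967): the ratio within a culture was 2.86 and 3.10 in shNSi and 0.71 and 1.79 in shDAP5. Over 9 alternatives its adjusted p ran from 0.00187 to 0.171, and 5 kept the call. For CD46 it was -1.15 (adjusted p = 0.0433), with ratios of 2.49 and 1.63 in shNSi and 1.15 and 1.01 in shDAP5. Only 2 of its 9 alternatives kept the call, with an adjusted p from 0.0265 to 0.652. The shDAP5 light libraries carry the same fraction code as the shNSi moderate ones. With heavy over moderate polysomes of shNSi as the control, chosen after seeing the data, neither gene was called: C1R was at -1.02 (adjusted p = 0.0975) and CD46 turned to 0.26 (adjusted p = 0.652), with shNSi ratios of 1.24 and 0.02 by culture.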

How the results depend on the processing

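Of the values of single genes, 440 kept their direction and their side of the threshold, 64 lost a call, 25 gained one, 24 turned in direction and 20 values of C3 without a test moved by more than the spread between cultures. Genes called in total mRNA, 53 in the main analysis, numbered 273 with DESeq2, 19 without TMM, 577 without a filter, 29 with limma and 3 with all 14 libraries in 1 fit, and ranged from 0 to 386 when 1 culture was left out. The member count, 0, was 1 with DESeq2 and without a filter, and 0 to 1 when a culture was left out. In heavy polysomes, 4414 genes became 50 with the moderate control, 421 with the summed control and 1479 with the coding-length offset, and 2 to 3559 when a culture was left out. The member count, 3, was 5 without a filter, 1 with limma, 0 with the moderate control, 1 with the summed control, 1 with the offset and 0 to 4 by culture. CD59 turned to -0.64, -0.27 and -0.66 under the last 3 settings. In light polysomes, 0 genes became 105 with DESeq2, 244 without a filter, 1 with all 14 libraries and 3940 with the moderate control, with 2 members called and CD59 at 0.045, and 2 to 4678 genes and 0 to 4 members by culture. In heavy translation efficiency, 2012 genes became 0 without TMM, 0 without culture terms, 0 with the moderate and 0 with the summed control, and 489 with the offset, and 4 to 4515 by culture. The members called there, 2, were 0 under the first 4 of these, 1 with the offset, 1 without a filter, 1 with a minimum of 10 counts, 1 with limma, and 0 to 4 by culture. With the moderate control C1R turned to 0.57, C1S to 0.30 and CD59 to -0.32, and with the offset CD59 turned to -0.23. On the gradient, moderate against light shNSi polysomes had 5240 genes, 2155 without culture terms and 2800 to 4166 by culture, heavy against light shDAP5 polysomes had 7654, and 3263 to 7989 by culture, with 5 members, 3 without TMM, 2 without culture terms and 0 to 5 by culture, and the difference between the shRNAs had 2777, and 0 to 3067 by culture, with 2 members, 1 without TMM, 1 without a filter and 0 to 1 by culture. With the shNSi moderate polysomes in place of the light ones, chosen after seeing the data, that difference had 3969 genes and 0 members called, and CD46 turned to 0.26 and CD55 to 0.68. Leaving out each culture moved total mRNA from -1.17 to 2.44 for CFB, -1.15 to 1.00 for C1R and -1.48 to 0.22 for C1S, light polysomes from -1.15 to 1.52 for C1R, -1.51 to 0.23 for C1S and -0.57 to 0.30 for CD46, moderate against light shNSi polysomes from -0.997 to 0.69 for C3, -0.0050 to 1.75 for CFB and -0.34 to 1.36 for C1S, shDAP5 heavy against light polysomes from -4.89 to 0.18 for CFB, and the difference between the shRNAs from -0.78 to 0.12 for CD55. DESeq2 gave no adjusted p for CFB in 3 comparisons and for C1S in heavy translation efficiency, and these values were left out. With the replicate number as a block, total mRNA had 365 genes and 1 member (CD55) called and CFB at 0.024, light polysomes had 130 genes and C1R at 0.056, and heavy translation efficiency had 688 genes and 1 member. Deviations of libraries with the same number had correlations of -0.12, 0.05 and 0.06 in total, light and heavy libraries, and with 2 cultures the numbers are not shown to pair them. The cause of these changes was not tested. With 2 cultures per shRNA, a high C3 in 1 control culture cannot be told apart from a difference of that culture in any other respect.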
